A study of Mus musculus with 10 samples.

Results

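Coding sequence peaks that span exon junctions are the stretches of m6A enrichment whose deposited class is coding sequence, in a protein-coding gene. Their deposited coordinates are broken into 2 or more blocks, each block lying on a different piece of exon. There were 837 of them among 32804 peaks of all classes, and the other 13859 coding sequence peaks each lay within 1 exon. They numbered 325 of 10161 peaks at day 1, 190 of 9070 at 1 week, 236 of 8765 at 2/4 weeks and 86 of 4808 at 8 weeks, and they fell in 538 genes. The rule used the class, the gene type and the number of blocks only, so the fold, width, position and sequence of the peaks are open to description.

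The livers came from wild-type C57BL/6J mice killed on day 1 after birth or at an age of 1, 2, 4 or 8 weeks, with no treatment, and each age had 1 immunoprecipitated (IP) and 1 input sample, 10 samples in all. Per the methods, RNA from 2 animals of each age was used, and the sources used here do not say how they were combined into a single peak list. Since the deposited 2-week and 4-week tables repeat each other in every measured column, they count as a single list here, called 2/4 weeks. No age has a replicate list, so values are set side by side with 95% Wilson intervals that cover counting error only, several peaks can share a gene, and no test between ages was possible.

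N6-methyladenosine is placed on nascent mRNA by the Mettl3-Mettl14 writer complex, mostly in the sequence context DRACH, of which GGAC is the commonest core. In mammals the mark is concentrated in long internal exons, in last exons and around stop codons. It is scarce near the splice junctions of short internal exons, where the exon junction complex deposited by splicing keeps the writer away. Antibody enrichment of fragmented RNA does not give the modified base itself, so a peak can run across a junction because a fragment does.

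The sequences that carry this geometry are those of junctions covered in several lists where the core word GGAC itself is formed by splicing, since there neither exon holds the whole word. In 6 such genes, 40 bases of the spliced transcript are given 5′ to 3′, with the junction between base 20 and base 21 and each GGAC in capitals. They were read from the mouse genome GRCm38 (mm10) on the longest coding transcript of GENCODE M21.
Acvr2a: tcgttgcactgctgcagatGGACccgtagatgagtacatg
Slc20a2: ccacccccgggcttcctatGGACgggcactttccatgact
Tmem2: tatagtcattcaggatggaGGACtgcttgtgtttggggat
Taok2: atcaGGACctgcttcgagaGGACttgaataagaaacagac
Ubxn7: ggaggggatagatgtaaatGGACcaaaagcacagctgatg
Ssb: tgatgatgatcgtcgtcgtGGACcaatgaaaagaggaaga
In all 6 the junction followed the first G of the word.

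The Acvr2a junction joins exons 9 and 10 of 11, across the intron between chr2:48897110 and chr2:48898478 on the plus strand. The gene encodes an activin receptor, and the junction was covered in all 4 lists. The Slc20a2 junction joins exons 7 and 8 of 11, between chr8:22560700 and chr8:22560887 on the plus strand, in a sodium-dependent phosphate transporter, and was also covered in all 4 lists. The others were covered in fewer lists. Tmem2, a cell surface hyaluronidase (exons 4 and 5 of 25, chr19:21797467 to chr19:21797867, plus strand), and Taok2, a kinase (exons 15 and 16 of 16, chr7:126871641 to chr7:126871906, minus strand), were covered at day 1, at 1 week and at 2/4 weeks. Ubxn7, an adaptor of the p97 segregase (exons 9 and 10 of 11, chr16:32381655 to chr16:32381766, plus strand), was covered in every list but day 1. Ssb, the La protein that binds the ends of RNA polymerase III transcripts (exons 11 and 12 of 12, chr2:69870833 to chr2:69871122, plus strand), was covered at day 1 and at 2/4 weeks.

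A whole peak is short enough to show for Slc20a2 at 8 weeks, chr8:22560688-22561113 on the plus strand, 240 nt of exon in 2 blocks with the junction after base 13. It is shown because its only GGAC, in capitals, is the one that splicing forms. Its fold of IP over input was 53.6.
Slc20a2 peak at 8 weeks: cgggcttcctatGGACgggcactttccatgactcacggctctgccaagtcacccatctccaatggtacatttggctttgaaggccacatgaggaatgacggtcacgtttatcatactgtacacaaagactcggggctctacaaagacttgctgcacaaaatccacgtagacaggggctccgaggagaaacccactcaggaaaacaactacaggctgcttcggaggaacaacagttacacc

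The share of coding sequence peaks that crossed a junction was small in every list. It was 7.42% at day 1 (95% Wilson interval 6.68 to 8.23%), 4.47% at 1 week (3.89 to 5.13%), 6.05% at 2/4 weeks (5.34 to 6.84%) and 3.99% at 8 weeks (3.24 to 4.90%). The intervals of day 1 and 1 week did not overlap, and those of 1 week and 8 weeks did. Coding sequence peaks made up most of the peaks of any class with 2 or more blocks, at 67.3% of 483 at day 1, 65.7% of 289 at 1 week, 70.7% of 334 at 2/4 weeks and 72.3% of 119 at 8 weeks. Since the tissue is bulk liver and the lists hold no expression values, fewer cells of a type, less RNA per cell and a change in methylation cannot be told apart when a gene has a peak at one age and none at another. Hepatocyte genes could be checked only through their peaks, and 27 of 40 genes for hepatocyte plasma proteins had a peak of some class.

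Most junction-spanning peaks crossed a single junction. Peaks of 2 blocks numbered 225 of 325 at day 1 (69.2%), 129 of 190 at 1 week (67.9%), 162 of 236 at 2/4 weeks (68.6%) and 53 of 86 at 8 weeks (61.6%). Peaks of 3 or more blocks made up the other 30.8% at day 1 (26.0 to 36.0%), 32.1% at 1 week (25.9 to 39.0%), 31.4% at 2/4 weeks (25.8 to 37.5%) and 38.4% at 8 weeks (28.8 to 48.9%). These 4 intervals all overlapped.

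Cep290, which encodes a protein of the ciliary transition zone, had the most blocks of any member, 8 over 690 nt of exons 3 to 10 of 54 at day 1, with a fold of 18.7. Smarcc1, a core subunit of the BAF chromatin remodelling complex, had 7 blocks over 569 nt at day 1 with a fold of 8.13. Spty2d1, a histone chaperone, had 6 blocks over 2393 nt at day 1 with a fold of 279. Psmd1, the largest subunit of the proteasome regulatory particle, held the most blocks at 1 week and at 8 weeks, 6 in each, and 6 also in the other lists. Its folds were 5.82 at day 1, 22.5 at 1 week, 23 at 2/4 weeks and 16.1 at 8 weeks.

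Some of these peaks covered most of a coding sequence. At 2/4 weeks Gstp1, a glutathione S-transferase, had 7 blocks over 495 nt with a fold of 44.8, which took in all 7 exons and 74.0% of the coding sequence. Orm1, an acute-phase plasma glycoprotein, had 6 blocks over 655 nt with a fold of 455 and 96.5% of the coding sequence. Mup20, a major urinary protein, had 6 blocks over 629 nt with a fold of 178 and 70.5% of the coding sequence. All 3 belong to families with near-identical copies, so the gene that gave the reads is uncertain. Habp2, a plasma serine protease, had the same 5 blocks over 330 nt at 1 week and at 2/4 weeks, where its folds were 50.7 and 224.

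Such wide coverage was the exception. Of the peaks placed on a coding transcript, 35 of 248 at day 1 (14.1%), 16 of 149 at 1 week (10.7%), 23 of 177 at 2/4 weeks (13.0%) and 7 of 63 at 8 weeks (11.1%) took in at least 50% of it. The shares among coding sequence peaks within 1 exon were lower, 6.42%, 3.89%, 4.58% and 2.04% in the same order of ages.

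**Figure D1:**
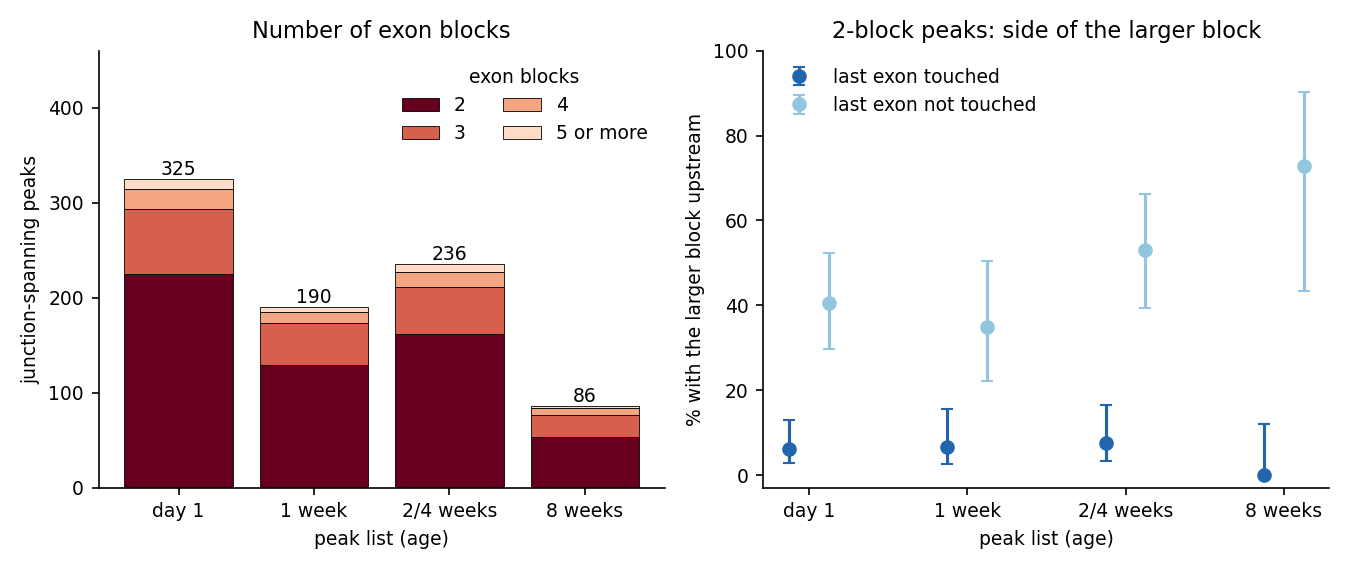
Left, the number of junction-spanning coding sequence peaks in each list, with the colour giving the number of exon blocks and the total above each bar (325, 190, 236 and 86). Right, for peaks of 2 blocks on a coding transcript, the percent whose larger block is the upstream one, for peaks that touch the last exon (dark) and those that do not (light), with 95% Wilson intervals. The dark points lie between 0 and 7.58% and the light points between 35 and 72.7%.

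The blocks were unequal in size. The largest block held a median of 89.2% of a peak's exonic bases at day 1, 86.6% at 1 week, 84.1% at 2/4 weeks and 84.1% at 8 weeks. The smallest block had a median of 34 nt at day 1, 32.5 nt at 1 week, 38 nt at 2/4 weeks and 26 nt at 8 weeks. It was under 30 nt in 44.0% of the peaks at day 1, 47.4% at 1 week, 42.8% at 2/4 weeks and 61.6% at 8 weeks.

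A block of 1 nt was the extreme. Setd6, a lysine methyltransferase, had 2 blocks in every list, the smaller of 120 nt at day 1 and of 1 nt at 1 week, at 2/4 weeks and at 8 weeks. Brwd1, a bromodomain protein, had blocks of 1 and 1410 nt at day 1, and that peak had the highest fold of the day 1 members, 448. Cenpe, a mitotic kinesin, had a smallest block of 119 nt at day 1 and of 1 nt at 1 week. A single base of overlap is therefore enough to put a peak in this class, and the Setd6 junction (exons 6 and 7 of 7, chr8:95718335 to chr8:95718476, plus strand) shows where such a peak begins, 1 base before the junction between base 20 and base 21.
Setd6: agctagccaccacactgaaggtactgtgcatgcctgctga

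Blocks between the outer ones were whole exons. They equalled an annotated exon in 151 of 153 cases at day 1, 83 of 84 at 1 week, 114 of 115 at 2/4 weeks and 44 of 45 at 8 weeks. Their median size was 134 nt at day 1, 143 nt at 1 week, 130 nt at 2/4 weeks and 129 nt at 8 weeks.

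The gaps between blocks were mostly annotated introns. An intron of some GENCODE transcript matched the gap exactly in 433 of 478 junctions at day 1 (90.6%), 251 of 274 at 1 week (91.6%), 316 of 351 at 2/4 weeks (90.0%) and 120 of 131 at 8 weeks (91.6%). An intron of the gene's longest coding transcript accounted for 404, 232, 292 and 109 of these in the same order. The rest joined exon edges that are annotated but that no single transcript joins, in 44 of 45 cases at day 1, 23 of 23 at 1 week, 35 of 35 at 2/4 weeks and 11 of 11 at 8 weeks.

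Those remaining gaps match exons that are merged over all transcripts of a gene. Whole peaks lay on such merged exons in 313 of 325 cases at day 1 (96.3%), 182 of 190 at 1 week (95.8%), 221 of 236 at 2/4 weeks (93.6%) and 81 of 86 at 8 weeks (94.2%). On no single transcript lay 60 peaks at day 1, 33 at 1 week, 45 at 2/4 weeks and 16 at 8 weeks, and 59, 32, 45 and 15 of them lay on the merged exons. Apoa5, Hsp90ab1, Psmd1 and Trib1 were among these, so their block counts depend on the gene model. For Rbm15b the gap lay inside an exon of the longest coding transcript, which has no intron there, and the junction belongs to a shorter coding transcript.

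The introns crossed were short. Gaps had a median of 368 nt at day 1, 302 nt at 1 week, 227 nt at 2/4 weeks and 239 nt at 8 weeks, against 900.5, 837, 833.5 and 759 nt for all introns of the same genes' longest coding transcripts. The class of a peak limits this comparison. The middle of the genomic span lay inside a block in 322 of 325 peaks at day 1, 189 of 190 at 1 week, 235 of 236 at 2/4 weeks and 85 of 86 at 8 weeks. Among peaks of any class with 2 or more blocks it did so in 449 of 483, 263 of 289, 309 of 334 and 110 of 119. Among junction-spanning peaks of 2 blocks the gap was shorter than the larger block in 223 of 225, 129 of 129, 162 of 162 and 53 of 53, which follows wherever the middle lies in a block. A peak whose middle fell in an intron was thus hardly ever among the coding sequence peaks, and uncommon in any class. The median gap describes the selected peaks only, and how far the class shortened it was not tested.

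The larger of 2 blocks usually lay downstream. It was the upstream block in 23.1% of 2-block peaks at day 1, 20.9% at 1 week, 32.7% at 2/4 weeks and 24.5% at 8 weeks. This side went with the last exon. Among peaks that touched the last exon the larger block was upstream in 6 of 96 at day 1 (6.25%), 4 of 61 at 1 week (6.56%), 5 of 66 at 2/4 weeks (7.58%) and 0 of 28 at 8 weeks, which allows up to 12.1% by the Wilson interval. Among peaks that did not touch it the counts were 28 of 69 (40.6%), 14 of 40 (35.0%), 26 of 49 (53.1%) and 8 of 11 (72.7%). Over all 2-block peaks on a coding transcript the larger block nearly always lay in the longer exon, in 160 of 165 peaks at day 1, 94 of 101 at 1 week, 106 of 115 at 2/4 weeks and 38 of 39 at 8 weeks. A block cannot be longer than its exon, which sets part of this count.

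A larger block downstream and one upstream are shown by Dhx57 and Phf23. Dhx57, an RNA helicase, had a block of 14 nt in exon 3 of 23 in 3 lists, followed by 644 nt of exon 4 at day 1 and by 495 nt at 1 week and at 2/4 weeks. Its folds there were 408, 490 and 448. Phf23, a PHD finger protein, crossed from exon 3 to exon 4 of 4, with the larger block of 597 nt upstream at day 1 and of 568 nt upstream at 1 week. As it touches the last exon, it is 1 of the 6 of 96 at day 1 and of the 4 of 61 at 1 week. Its fold was 179 at day 1 and 1050 at 1 week, the highest of any junction-spanning peak in the 1-week list.

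Junction-spanning peaks were wider than peaks within 1 exon. Their exonic width had a median of 569 nt at day 1, 450 nt at 1 week, 388 nt at 2/4 weeks and 241 nt at 8 weeks, against 300, 269, 270 and 181 nt for peaks within 1 exon. Width bears on every comparison that follows, because a wider window reaches more junctions, more motifs and more peaks of another list. Among coding sequence peaks of 150 to 300 nt the share that crossed a junction was 3.14% at day 1, 2.68% at 1 week, 3.89% at 2/4 weeks and 3.15% at 8 weeks, so the order of the lists changed.

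The fold, the ratio of IP to input as deposited, was higher in junction-spanning peaks over all widths and lower at equal width. Over all widths its median was 33.8 at day 1, 37.5 at 1 week, 28.7 at 2/4 weeks and 21.7 at 8 weeks, against 21.7, 22.5, 20.5 and 19.7 within 1 exon. Among peaks of 150 to 300 nt, a comparison added after the values were seen, it was 8.21 (n = 62), 10.9 (n = 61), 12.5 (n = 77) and 14.1 (n = 51), against 13, 15.3, 13.5 and 17.7 within 1 exon. The difference in medians was +12.1, +14.95, +8.2 and +2 over all widths and −4.80, −4.4, −1 and −3.6 at equal width, so its direction turned in all 4 lists. Quartiles overlapped widely in both comparisons. Folds of different lists share no known scale, so they are compared within a list only.

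More blocks did not go with a higher fold in the 3 younger lists. At day 1 the median fold was 42.7 for 2 blocks, 19.6 for 3 and 16.4 for 4 or more. At 1 week these medians were 48.7, 22.9 and 27.5, and at 2/4 weeks 33.1, 24 and 28.7. At 8 weeks they were 20.4, 19.6 and 51.1, and the last of these rested on 9 peaks.

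**Figure D2:**
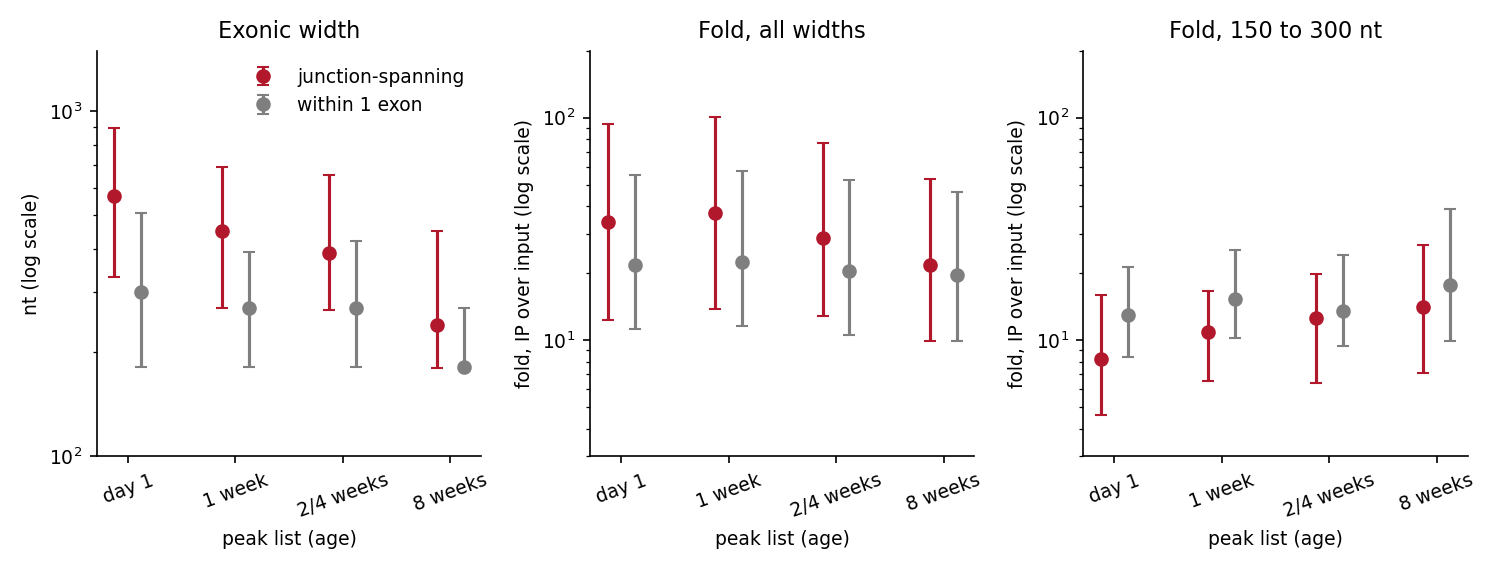
Medians (points) and quartiles (bars) of the exonic width in nt (left), of the fold of IP over input for peaks of all widths (middle) and of the fold for peaks of 150 to 300 nt (right), all on log axes, for junction-spanning peaks (red) and coding sequence peaks within 1 exon (grey) in each list. The red points lie above the grey ones in the left and middle panels and below them in the right panel, where the medians are 8.21 to 14.1 against 13 to 17.7.

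The highest folds of each list belonged to genes of varied function. At day 1 Brwd1 was followed by Dhx57, by Ppp4r2 (392), a regulatory subunit of protein phosphatase 4, by Zc3h4 (373), a zinc finger protein of transcription termination, and by Rab3il1 (366), an exchange factor for Rab GTPases. At 1 week the highest were Phf23, the zinc finger protein gene Zfp62 (1010), Parp14 (570), an ADP-ribosyltransferase, Paf1 (537), a subunit of an RNA polymerase II elongation complex, and Dhx57. At 2/4 weeks they were Kdm6b (689), a demethylase of histone H3 lysine 27, the nucleolar protein gene Nom1 (656), H6pd (612), the hexose-6-phosphate dehydrogenase of the endoplasmic reticulum, Ppp4r2 (516) and Trip11 (458), a golgin. At 8 weeks they were Acvr2a (537), Apoa5 (469), AU022252 (351), the integrin subunit gene Itgb5 (219) and the RNA-binding protein gene Sltm (186).

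Several of these genes had a member in more than 1 list. Nom1 had a junction-spanning peak with folds of 37.1 at day 1, 99.6 at 1 week and 656 at 2/4 weeks. Trip11 had one with folds of 105 at day 1 and 458 at 2/4 weeks, over 1767 and 1827 nt. AU022252 had one with folds of 174 at 1 week, 45.1 at 2/4 weeks and 351 at 8 weeks.

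Junction-spanning peaks lay farther towards the 3′ end of the coding sequence. The middle of the peak, counted along the spliced coding sequence from 0% at the start codon to 100% at the stop codon, had a median of 67.6% at day 1 (n = 248), 66.5% at 1 week (n = 149), 71.5% at 2/4 weeks (n = 177) and 83.0% at 8 weeks (n = 63). Peaks within 1 exon had medians of 56.0%, 54.8%, 55.6% and 59.8%. The peaks ran into the 3′ untranslated region in 37.5% of cases at day 1, 33.6% at 1 week, 34.5% at 2/4 weeks and 42.9% at 8 weeks, against 18.7%, 14.2%, 15.7% and 14.2% within 1 exon. The last exon was touched about as often by both kinds, at 49.6%, 51.0%, 49.7% and 55.6% against 47.5%, 44.9%, 45.8% and 47.8%. The class limits the comparison of position, since peaks within 1 exon with a middle past the stop codon were nearly absent from it. Middles at 100 to 110% made up 8.87%, 6.04%, 5.65% and 11.1% of junction-spanning peaks. Within 1 exon they made up 0.0512%, 0%, 0.0283% and 0.0995%. How far the class set the differences was not tested.

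**Figure D3:**
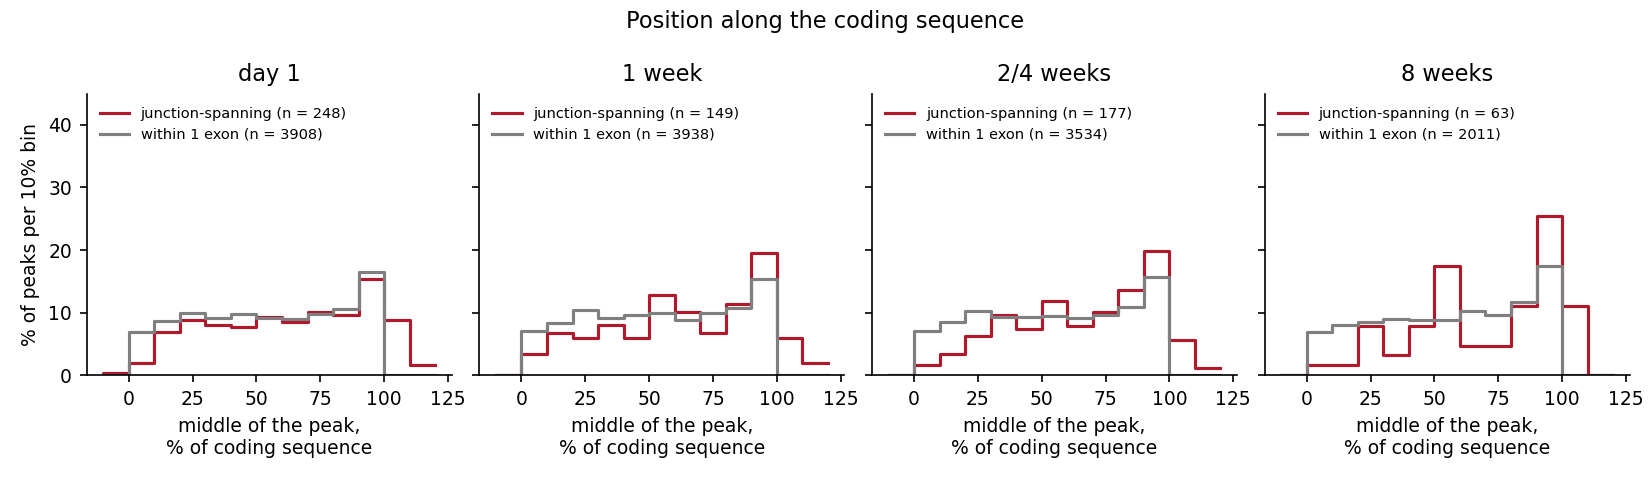
Percent of peaks in each 10% bin (y) of the position of the peak's middle along the coding sequence (x, 0% at the start codon, 100% at the stop codon), for junction-spanning peaks (red) and coding sequence peaks within 1 exon (grey), 1 panel per list. The red lines are highest in the bin before the stop codon in every list and go on past it, where grey is near 0. The class was assigned on the genome, so a spliced middle past the stop codon can occur in peaks of several blocks.

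The exons touched were shorter than those of other coding sequence peaks and still long. The longest exon touched had a median of 965.5 nt at day 1, 832 nt at 1 week, 735 nt at 2/4 weeks and 682 nt at 8 weeks, against 1805, 1830.5, 1803.5 and 1820 nt for peaks within 1 exon. An exon of at least 400 nt was touched by 77.0%, 71.8%, 66.1% and 63.5% of junction-spanning peaks, against 94.8%, 95.8%, 95.2% and 93.4%. The transcripts also held more exons, with medians of 14, 14, 13 and 15 against 8, 9, 9 and 9. The number of blocks sets part of these differences. A peak can stay within 1 exon only where that exon is long enough, and a transcript of 1 exon cannot hold a junction-spanning peak.

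The core word GGAC was present in most junction-spanning peaks, at a density close to that of the other coding sequence peaks. Of peaks lying wholly on the longest coding transcript, 91.2% of 238 at day 1, 86.2% of 145 at 1 week, 83.3% of 168 at 2/4 weeks and 81.0% of 58 at 8 weeks held GGAC on the transcribed strand. Of all windows of the same widths on the same transcripts, 84.1%, 79.3%, 80.0% and 71.2% held it. Peaks within 1 exon held it in 79.5%, 77.3%, 78.7% and 71.6% of cases, against 68.7%, 64.9%, 65.6% and 57.3% of their windows. In percentage points the excess over windows was thus smaller in junction-spanning peaks than within 1 exon in every list. The windows of junction-spanning peaks already held the word more often, which left less room for an excess, so the order depends on the scale used.

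At equal width the excess over windows, in percentage points, was smaller than within 1 exon in the 3 younger lists and close to it at 8 weeks, on few junction-spanning peaks. Among peaks of 150 to 300 nt, GGAC was present in 72.1% at day 1 (windows 63.1%), 70.8% at 1 week (60.6%), 62.3% at 2/4 weeks (63.5%) and 71.9% at 8 weeks (57.3%). For peaks within 1 exon the shares were 70.5% (windows 56.4%), 70.9% (55.3%), 72.0% (55.9%) and 67.5% (53.3%). The list of 2/4 weeks was the one in which junction-spanning peaks held the word no more often than windows, with 53 peaks. The density was 5.58, 6.17, 5.63 and 5.52 words per kb in junction-spanning peaks of all widths, against 5.64, 5.83, 5.94 and 6.15 per kb within 1 exon.

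The longer word GGACT also exceeded its windows by less in junction-spanning peaks than within 1 exon over all widths. It was held by 54.2% of junction-spanning peaks at day 1 (windows 49.7%), 47.6% at 1 week (42.3%), 50% at 2/4 weeks (42.2%) and 36.2% at 8 weeks (33.3%). Peaks within 1 exon held it in 41.7% (windows 32.0%), 37.7% (28.2%), 38.6% (28.9%) and 31.0% (22.5%) of cases. Among peaks of 150 to 300 nt the shares were 18.6% (windows 21.1%), 18.75% (21.2%), 32.1% (24.2%) and 25% (19.6%), against 30.5% (20.5%), 29.7% (20.1%), 30.1% (20.5%) and 26.3% (19.1%) within 1 exon. At this width GGACT was thus held less often than in windows by the junction-spanning peaks of day 1 and 1 week, on 8 and 9 peaks with the word.

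CAGG, a word of the same bases in another order, gives a second comparison with windows. Over all widths it was held by 93.7% of junction-spanning peaks at day 1 (windows 91.6%), 87.6% at 1 week (87.8%), 86.9% at 2/4 weeks (88.6%) and 77.6% at 8 weeks (82.2%). Within 1 exon the shares were 83.0% (windows 80.4%), 81.1% (77.7%), 81.2% (78.0%) and 75.3% (71.2%). At 150 to 300 nt it was held by 86.0% (windows 76.0%), 75% (75.6%), 73.6% (78.6%) and 59.4% (72.8%), against 75.2% (70.9%), 74.3% (70.3%), 74.2% (70.5%) and 72.6% (67.8%) within 1 exon. Junction-spanning peaks of day 1 thus lay over windows for CAGG at both widths, as peaks within 1 exon did in every list, and those of the 3 older lists did not.

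Within the peaks, GGAC was not denser beside the junction. Within 100 nt of a junction inside the peak its density was 5.77 per kb at day 1, 5.30 at 1 week, 4.44 at 2/4 weeks and 4.62 at 8 weeks, and farther away it was 5.50, 6.67, 6.40 and 6.37 per kb. The largest block held 5.62, 6.35, 5.87 and 5.57 words per kb and the other blocks 5.36, 5.30, 4.73 and 5.32 per kb. In the coding sequence of the same transcripts the density was 4.96, 4.93, 4.99 and 4.70 per kb near junctions and 4.74, 5.18, 5.40 and 4.03 per kb away from them. Within the peaks day 1 was the exception, with a slightly higher density near the junction. In the coding sequence of the transcripts the density was higher near junctions at day 1 and at 8 weeks.

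A GGAC formed by splicing was rare. It lay across 12 of 358 junctions inside the peaks at day 1 (3.35%, 1.93 to 5.77%), 8 of 204 at 1 week (3.92%, 2.00 to 7.55%), 10 of 257 at 2/4 weeks (3.89%, 2.13 to 7.01%) and 3 of 87 at 8 weeks (3.45%, 1.18 to 9.65%). Of all junctions of the same transcripts, 2.61%, 2.80%, 2.35% and 2.27% held one, within the interval of the peaks' junctions in each list. There were 20 such junctions in all, and the 6 printed are those covered in the most lists. The folds at the Tmem2 junction were 180 at day 1, 272 at 1 week and 91.2 at 2/4 weeks. At the Ssb junction they were 2.31 at day 1 and 13.7 at 2/4 weeks. At the Ubxn7 junction they were 24 at 1 week, 3.06 at 2/4 weeks and 2.38 at 8 weeks.

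Sharing between ages was first counted as the overlap of exon blocks on the same strand by at least 1 base with a peak of any class. Of the day 1 members, 221 of 325 (68.0%) were overlapped by a 1-week peak, beside 58.8% of all day 1 peaks and 61.6% of those within 1 exon. By the 2/4-week list 212 were overlapped (65.2%), beside 53.7% of all peaks and 56.7% within 1 exon. By 8 weeks 130 were overlapped (40.0%), beside 24.4% and 24.1%. Over all widths, members of the day 1 list were thus found again more often than other peaks of that list.

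Back to day 1 they were found less often. Of the 1-week members 120 of 190 (63.2%) were overlapped by a day 1 peak, beside 72% of all 1-week peaks and 72.3% of those within 1 exon. Of the 2/4-week members 136 of 236 (57.6%) were overlapped by a day 1 peak, beside 67.6% and 72.4%. Of the 8-week members 39 of 86 (45.3%) were, beside 57.9% and 59.0%.

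Between the older lists the order depended on the pair. By 8 weeks 74 of the 190 1-week members were overlapped (38.9%), beside 29.3% of all 1-week peaks and 29.0% of those within 1 exon, and 89 of the 236 2/4-week members (37.7%), beside 30.3% and 31.8%. At 150 to 300 nt these shares were 13.1% and 11.7%, against 15.9% and 17.5% within 1 exon. By the 2/4-week list 118 of the 1-week members were overlapped (62.1%), beside 62.8% and 66.7%, and by 1 week 138 of the 2/4-week members (58.5%), beside 64.5% and 72.7%. Of the 8-week members 38 (44.2%) were overlapped by 1 week, beside 59.9% and 65.3%, and 42 (48.8%) by the 2/4-week list, beside 59.6% and 64.7%.

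The direction changed with the width compared. Among peaks of 150 to 300 nt the day 1 members were overlapped in 27.4% of cases by 1 week, 27.4% by the 2/4-week list and 9.68% by 8 weeks, against 42.0%, 36.6% and 9.62% of peaks within 1 exon. The difference for 1 week was +6.40 percentage points over all widths and −14.6 at this width, that for 2/4 weeks was +8.54 and −9.22, and that for 8 weeks was +15.9 and +0.059. Back to day 1 the shares at this width were 41.0% for 1 week, 35.1% for the 2/4-week list and 29.4% for 8 weeks, against 68.2%, 68.6% and 57.6%. Narrow junction-spanning peaks were therefore found again in day 1 less often than equally narrow peaks within 1 exon, with intervals that did not overlap.

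**Figure D4:**
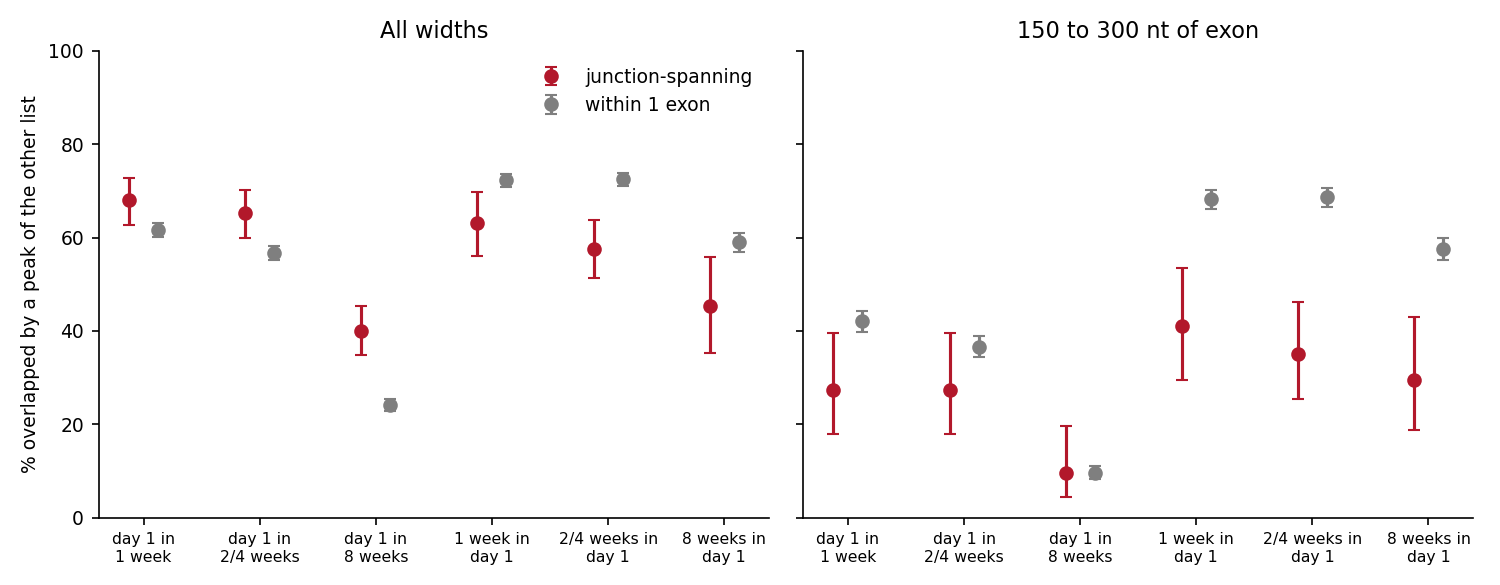
Percent of coding sequence peaks of the first-named list that are overlapped by a peak of any class of the second list, for peaks of all widths (left) and of 150 to 300 nt of exon (right), junction-spanning (red) and within 1 exon (grey), with 95% Wilson intervals. On the left red lies above grey for day 1 peaks and below it for peaks of the other lists in day 1, and on the right red lies below grey in every pair but day 1 in 8 weeks, where both are near 10%.

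The peak that overlapped was often one within 1 exon. Only 83 of the 325 day 1 members (25.5%) were overlapped by a junction-spanning peak of the 1-week list and 96 (29.5%) by one of the 2/4-week list, while 109 (33.5%) and 90 (27.7%) met only coding sequence peaks within 1 exon. At 8 weeks 29 (8.92%) met a junction-spanning peak. From the older lists back to day 1 the counts were the same, 83, 96 and 29. They made up 43.7% of the 1-week members, 40.7% of the 2/4-week members and 33.7% of the 8-week members. These shares are larger because the older lists hold fewer members, so they do not show that the class was kept more often in that direction. The day 1 members were the widest, with the median of 569 nt given above.

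At the level of genes, 353 of the 538 genes had such a peak in 1 list, 124 in 2 lists, 45 in 3 lists and 16 in all 4. Having it in 1 list did not mean that the gene was unmarked elsewhere. Of the 353 genes, 263 had a peak of some class in another list and 90 had none, 31 at day 1, 11 at 1 week, 32 at 2/4 weeks and 16 at 8 weeks. Day 1 and 1 week shared 85 genes, 27.7% of the day 1 genes and 46.2% of the 1-week genes. Day 1 and 8 weeks shared 33 genes, 10.7% of the day 1 genes and 39.3% of the 8-week genes. Matching counts for all genes with a peak, or for peaks within 1 exon, are not given here. Whether these counts of genes, and those of junctions below, differ from the general turnover between the lists was not tested.

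At 2/4 weeks the genes with no peak of any class in the other lists were led by Orm1 and by Aldh1a1 (fold 203), a retinaldehyde dehydrogenase, followed by Mup20, Gstp1 and the helicase gene Ddx27 (34.5). At day 1 they were led by Mphosph8 (235), a heterochromatin protein of the HUSH complex, Cyp2d9 (74.3), a cytochrome P450, and Cep55 (70.8), a protein of cytokinesis, followed by Nip7 (49.7) and Thoc1 (31.5), an mRNA export factor. At 1 week they were Paf1, Naa25 (47.3), a subunit of an N-terminal acetyltransferase, Psmc3 (27.5), a proteasome ATPase, Ddx46 (10.9) and Lmbrd2 (10.2). At 8 weeks they were Arid4a (152), a retinoblastoma-binding protein, Ppig (132), a nuclear cyclophilin, Pds5b (75.9), a regulator of cohesin, Nifk (59.2) and the ribosomal protein gene Rpl8 (43.7). Cyp2d9, Nip7 and Rpl8 have close copies or pseudogenes, so these 3 assignments are uncertain.

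At the level of junctions, 880 were covered in any list, 642 of them in 1 list, 152 in 2, 56 in 3 and 30 in all 4. The 30 lay in 16 genes, which are the 16 genes with a junction-spanning peak in all 4 lists. They are Acvr2a, Apoa5, Gpd1, H6pd, Hsp90ab1, Kdm6b, Larp4b, Mrps12, Nop58, Pitpnm2, Psmd1, Rbm15b, Setd6, Slc20a2, Smc1a and Zmat2. Of the 30 gaps, 28 were annotated introns, and the other 2 were both in Apoa5.

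Further junctions covered in all 4 lists are given here for genes of metabolism, chromatin and RNA biology, in the same form, 40 bases with the junction between base 20 and base 21, to set beside the spliced words above. They hold GGAC away from the junction or not at all.
Pitpnm2: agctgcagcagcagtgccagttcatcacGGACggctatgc
Gpd1: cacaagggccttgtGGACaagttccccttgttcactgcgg
Nop58: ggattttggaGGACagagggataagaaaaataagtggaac
Smc1a: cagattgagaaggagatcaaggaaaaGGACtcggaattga
H6pd: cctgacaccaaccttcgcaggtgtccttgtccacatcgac
Kdm6b: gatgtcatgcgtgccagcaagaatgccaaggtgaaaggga
These junctions join exons 24 and 25 of 25 in Pitpnm2 (chr5:124121586 to chr5:124121668, minus strand), exons 7 and 8 of 8 in Gpd1 (chr15:99722562 to chr15:99723191, plus strand) and exons 11 and 12 of 15 in Nop58 (chr1:59706767 to chr1:59707003, plus strand). They join exons 5 and 6 of 25 in Smc1a (chrX:152026770 to chrX:152027694, plus strand), exons 4 and 5 of 5 in H6pd (chr4:149982921 to chr4:149983903, minus strand) and exons 11 and 12 of 23 in Kdm6b (chr11:69403916 to chr11:69404006, minus strand).

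The peaks at these junctions differed in where they began and ended. The peak of Pitpnm2, a phosphatidylinositol transfer protein, began 38 nt before the junction at day 1 and 8 nt before it at 1 week, at 2/4 weeks and at 8 weeks. It ended 592, 622, 622 and 502 nt after the junction, past the end of the coding sequence at 321 nt. Its folds were 342 at day 1, 124 at 1 week, 207 at 2/4 weeks and 110 at 8 weeks.

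The Acvr2a peak had 3 blocks in every list. It began 84 nt before the first junction at day 1 and 24 nt before it in the other lists, and it ended 725, 665, 635 and 486 nt after it, beyond the stop codon at 323 nt. Its folds were 39 at day 1, 291 at 1 week, 170 at 2/4 weeks and 537 at 8 weeks. The start was the same in the 3 older lists and the end differed in all 4.

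The Slc20a2 peak lay inside the coding sequence. It ran from 162 nt before to 466 nt after the junction at day 1, from 43 to 317 nt at 1 week, from 73 to 466 nt at 2/4 weeks and from 13 to 227 nt at 8 weeks. Its folds were 89.7, 204, 67.9 and 53.6 in that order. The 8-week peak, whose sequence is given above, was the narrowest.

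The Kdm6b peak had the opposite shape, with most of its bases upstream. It began 847 nt before the junction at day 1, 757 nt at 1 week, 817 nt at 2/4 weeks and 308 nt at 8 weeks, and ended 83, 113, 143 and 83 nt after it. Its folds were 20.8, 257, 689 and 98.7. Kdm6b also had a second junction-spanning peak, of 121 nt at day 1 and of 181 nt at 1 week, with folds of 7.71 and 6.06, which made it 1 of the 5 genes with 6 such peaks over the lists.

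Nop58, a core protein of box C/D small nucleolar ribonucleoproteins, had the same 5 blocks over 480 nt at day 1, at 1 week and at 2/4 weeks, and 5 blocks over 420 nt at 8 weeks. Its folds were 47.6, 179, 51.3 and 65.3. Identical blocks were otherwise uncommon. Trib1, a pseudokinase gene linked to plasma lipids, had the same 2 blocks over 1077 nt at day 1, at 1 week and at 2/4 weeks, with folds of 350, 228 and 210. Hsp90ab1, a cytosolic chaperone, had the same 2 blocks over 481 nt at 1 week, at 2/4 weeks and at 8 weeks. Of all block patterns 772 occurred in 1 list, 28 in 2 lists, these 3 in 3 lists and 0 in all 4.

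Apoa5, which encodes an apolipoprotein of plasma triglyceride clearance, had 4 blocks in every list. They covered 1336 nt at day 1, 1187 nt at 1 week, 1425 nt at 2/4 weeks and 2255 nt at 8 weeks. The folds of these peaks were 57.1, 144, 19.1 and 469. The younger lists also held separate peaks in the 3′ untranslated region of Apoa5. They were of 446 nt at day 1, 505 nt at 1 week and 416 and 179 nt at 2/4 weeks, and the 8-week peak overlapped their positions. The widths thus also depend on how a stretch was split into peaks. Of the 5 peaks of highest fold at 8 weeks, those of Apoa5, Acvr2a, AU022252 and Sltm lay in genes with a member at a younger age, and that of Itgb5 did not. Itgb5 did have a 2/4-week peak of another class, the 3′ untranslated region, with a fold of 241, and it overlapped the 8-week peak.

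**Figure D5:**
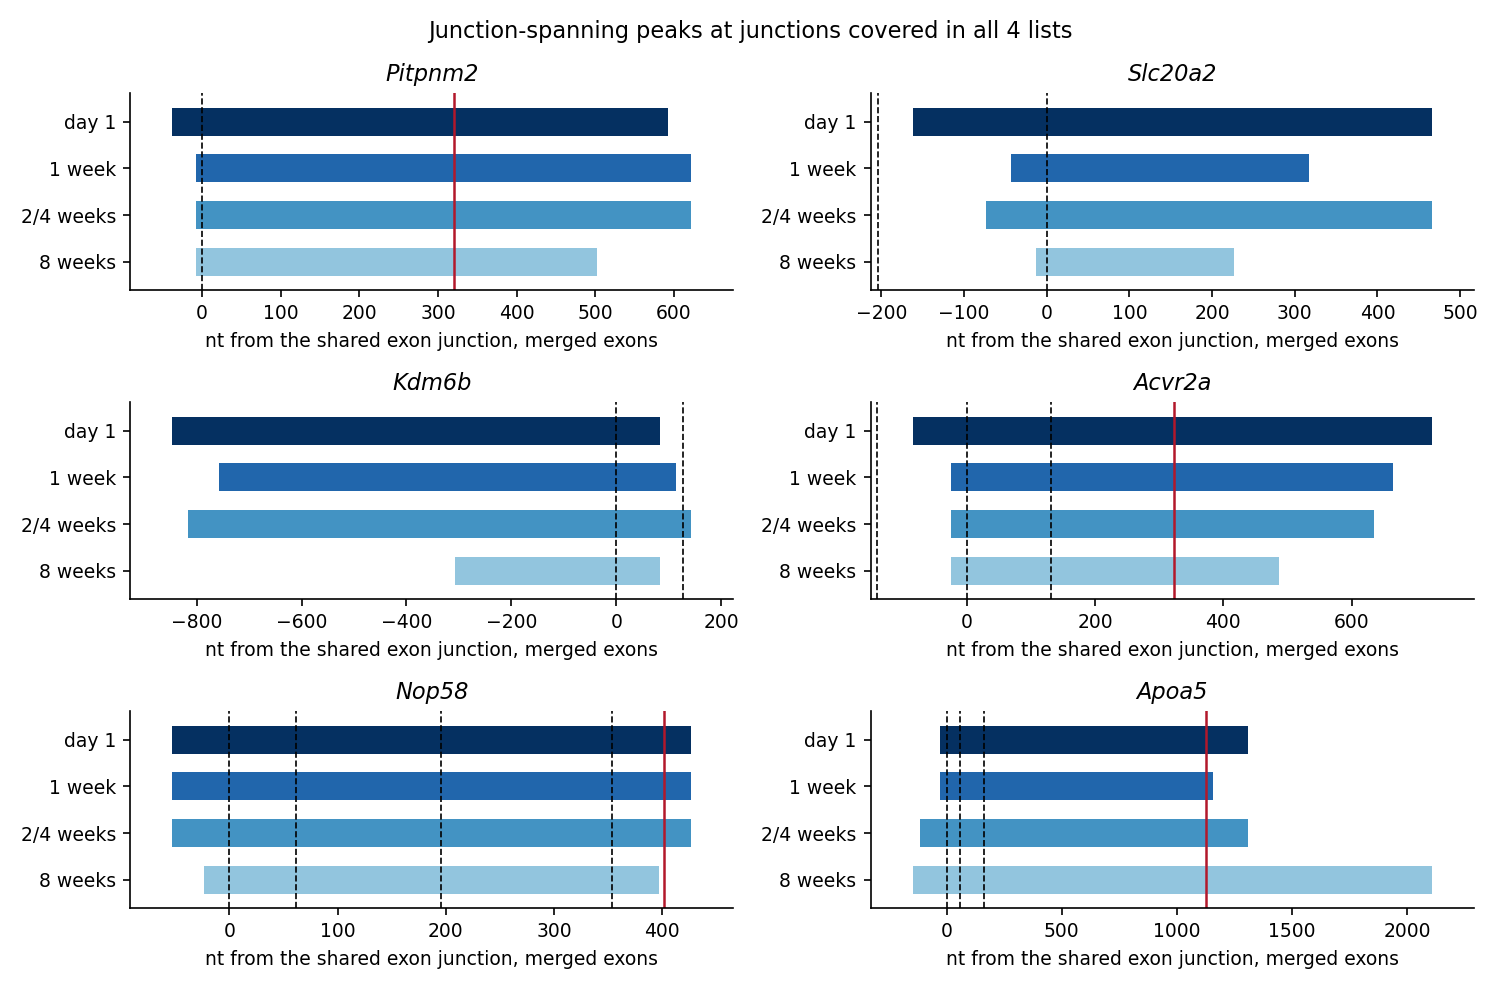
Junction-spanning peaks of 6 genes at a junction covered in all 4 lists, as bars on the merged exons, with the position in nt from the shared junction on x and the list on y. Dashed lines are exon junctions and the red line is the end of the coding sequence where it lies in view. Pitpnm2 and Acvr2a begin close to the junction and pass the stop codon, Slc20a2 stays inside the coding sequence, Kdm6b lies mostly upstream and Nop58 keeps the same limits in 3 lists. The Apoa5 peak is wider at 8 weeks than in the other lists, where separate peaks of the 3′ untranslated region lay downstream and are not drawn.

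The other genes covered in all lists included enzymes, a chaperone and RNA-binding proteins. Gpd1, the cytosolic glycerol-3-phosphate dehydrogenase, had folds of 12.9 at day 1, 37.1 at 1 week, 9.88 at 2/4 weeks and 9.36 at 8 weeks. Smc1a, a cohesin subunit, had 11.4, 18.9, 115 and 51.1 over 5, 5, 5 and 4 blocks. H6pd had 340, 393, 612 and 16.8, and its peak was 2245, 2155, 2275 and 1138 nt wide. The 8-week peak was thus the narrowest junction-spanning peak of H6pd. At 8 weeks the gene also had a separate peak in the 3′ untranslated region, of 1048 nt with a fold of 32. That peak overlapped positions that the junction-spanning peak covered in the younger lists, so the widths also depend on how a stretch was split into peaks.

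Setd6 had folds of 42 at day 1, 37.1 at 1 week, 80.8 at 2/4 weeks and 5.17 at 8 weeks, where the peak was 179 nt wide. Hsp90ab1 had 15.2, 22.3, 12.4 and 21.2. Larp4b, an RNA-binding protein of the La-related family, had 17.2, 14.2, 9.81 and 29. Mrps12, a protein of the mitochondrial ribosome, had 19.4, 16.7, 41 and 20.4, and Zmat2, a zinc finger protein of the spliceosome, had 21.2, 24.1, 30 and 33.4. Larp4b and Mrps12 lay on a transcript that is not annotated as coding. Each Mrps12 peak overlapped a coding sequence peak within 1 exon of the same gene in its own list, with folds of 19.4, 13.8, 41 and 20.4, so both forms were listed for the same bases.

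Rbm15b, a subunit of the m6A writer complex that binds RNA, was itself among the 16 genes. Its folds were 98.8 at day 1, 475 at 1 week, 200 at 2/4 weeks and 97.3 at 8 weeks, over 652, 386, 445 and 297 nt. Its own list also held an unbroken coding sequence peak within 1 exon over most of the same bases at each age, with folds of 135, 461, 199 and 97.3, so both listings share these bases. Overlap of a junction-spanning peak with a peak within 1 exon of its own list occurred in 2 of 325 peaks at day 1, 2 of 190 at 1 week, 3 of 236 at 2/4 weeks and 2 of 86 at 8 weeks, which are those of Rbm15b and Mrps12 and, at 2/4 weeks, that of Serf2 with a peak of Hypk. Of the 9 genes of the m6A machinery with a coding sequence peak, the only other with a junction-spanning peak was Zc3h13, another writer subunit, which had 2 blocks over 570 nt and a fold of 56 at day 1.

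The other 4 genes with 6 such peaks over the lists were Kmt2d, Ncl, Akap13 and Taok2. Kmt2d, a methyltransferase of histone H3 lysine 4, had a peak from exon 40 with folds of 96.2 at day 1, 295 at 1 week and 163 at 2/4 weeks. Ncl, which encodes nucleolin, had 4 blocks over exons 2 to 5 of 14 with folds of 33.3 at 1 week, 50.9 at 2/4 weeks and 30 at 8 weeks. Akap13, an anchoring protein for protein kinase A, had a peak over exons 36 to 38 of 38 with folds of 82.7 at day 1, 75.6 at 1 week and 285 at 2/4 weeks. Taok2, described above, had folds of 26.6, 36.7 and 57.7 at the junction printed above.

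Across gene groups, a junction-spanning peak was found in 538 of 4159 genes with a coding sequence peak in any list (12.9%). In the lists taken singly it was 307 of 2868 genes at day 1, 184 of 2649 at 1 week, 225 of 2557 at 2/4 weeks and 84 of 1560 at 8 weeks. Chromatin regulators had one in 14 of 45. By list this was 9 of 34 at day 1, 8 of 35 at 1 week, 7 of 35 at 2/4 weeks and 3 of 31 at 8 weeks, so the counts fell with age in all genes too, apart from 2/4 weeks. Besides Kdm6b and Kmt2d the chromatin regulators included Chd4, a remodelling ATPase, with 5, 3 and 3 blocks and folds of 6.91 at day 1, 5.3 at 1 week and 17.1 at 2/4 weeks. Arid1a, a BAF subunit, had 2 such peaks at day 1, both of 46.9-fold enrichment, and 1 of 19.9-fold at 2/4 weeks.

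Cell cycle genes had one in 9 of 21, all at day 1 (8 of 17 genes) or 1 week (4 of 16 genes), to be read beside the shares of all genes in the same lists. Aspm, a spindle protein, had folds of 40.6 at day 1 and 68.3 at 1 week. Aurka, a mitotic kinase, had 25.8 and 30.5, and Cenpe had 14.2 and 8. The number of cell cycle genes with any coding sequence peak was 17 at day 1, 16 at 1 week, 10 at 2/4 weeks and 4 at 8 weeks, so the absence of junction-spanning peaks went with fewer peaks in these genes. Among erythroid and haematopoietic genes, Zfpm1, a GATA cofactor, had folds of 113 at day 1 and 296 at 1 week.

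Hepatocyte plasma protein genes had one in 6 of 14. Apoa1, the main apolipoprotein of high density lipoprotein, had 2 blocks in exons 3 and 4 of 4 with folds of 6.58 at day 1, 10 at 1 week and 10.2 at 8 weeks. Fga, the fibrinogen alpha chain, had folds of 33.8 at day 1 and 34.7 at 2/4 weeks. F5 and F10, both coagulation factors, had folds of 6.3 and 5.6 at day 1 only. Itih1, an inter-alpha-trypsin inhibitor heavy chain, had 2 blocks over 540 nt with a fold of 108 at day 1 and over 480 nt with 24.6 at 1 week. Igf1, the growth factor secreted by hepatocytes, had a fold of 7.86 at 2/4 weeks. The folds of Apoa1, F5, F10 and Igf1 lay below the median of the members in their lists, as did Itih1 at 1 week, while Itih1 at day 1 and Fga at 2/4 weeks lay over it and Fga at day 1 was at it.

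Liver transcription factors had one in 2 of 20, both at 2/4 weeks only. Prox1, a homeodomain factor of hepatocytes, had 3 blocks over 1948 nt with a fold of 107. Mlxipl, the glucose-responsive factor ChREBP, had 2 blocks over 211 nt with a fold of 1.9. Both lay on a transcript other than the longest coding one.

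The metabolic lists are read beside the same 12.9% of all genes. In sterol and bile acid metabolism 2 of 12 genes had a junction-spanning peak, Klb, the coreceptor for fibroblast growth factor 21, with the same 1258 nt at day 1 (fold 104) and 1 week (437), and Cyp27a1, a sterol hydroxylase, with a fold of 22.2 at 2/4 weeks. In amino acid, urea and sugar metabolism they were 3 of 6, among them Glul, glutamine synthetase, with folds of 10.1 at day 1, 5.94 at 2/4 weeks and 6.92 at 8 weeks. In fatty acid and triglyceride metabolism they were 3 of 10 (Lpin1, Lpin2 and Pcx) and among cytochrome P450 genes 2 of 15, Cyp2d9 and its close relative Cyp2d10.

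The remaining groups were small. Genes of the exon junction complex and mRNA decay had one in 4 of 11, Acin1 with folds of 4.13 at day 1 and 40.1 at 2/4 weeks, Casc3, a core protein of the complex, with 10.9 at 1 week, and Pnn and Smg1 at day 1. Extracellular matrix genes had one in 4 of 13, among them Col1a1, a collagen chain, with folds of 7.18 at day 1 and 12.4 at 1 week. Fetal and imprinted genes had one in 1 of 5 (Peg3, at day 1 and 1 week), endothelial and stellate markers in 1 of 9 (Ecm1, at 8 weeks) and leukocyte markers in 1 of 4 (Camp, at 2/4 weeks). The part of these other cell types in the lists was not tested.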

How the data were processed

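m6A-RIP sequencing of liver RNA was represented by the peak tables of 5 ages. Per the methods, fragmented RNA was enriched with an m6A antibody, reads were aligned to mm10 with HISAT2 (named with HOMER in the submitters' processing notes), and exomePeak called peaks of IP over input. The deposited tables give positions and exon blocks, gene and class, a p-value, the log10 of the p-value and of the false discovery rate (FDR) as scores, and a fold, which is a ratio of IP to input made by the authors. No counts were used, so depth is unknown. Whether libraries kept strand and which annotation the caller used are not given in the sources used here, so an antisense partner cannot be told apart.

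The 2-week and 4-week tables, 8765 rows each, differed only in 12 gene names, written as dates by a spreadsheet. Members were matched to GENCODE M21 transcripts on GRCm38, and all 3922 transcript sequences read from the genome equalled those of GENCODE. GGAC, GGACT and CAGG were searched on the transcribed strand, beside every window of equal width on the same transcript, untranslated regions included. Python 3.11.15, pandas 2.3.3, numpy 2.4.6 and pysam 0.24.0 were used, with Wilson intervals at 95%, and the functions were tested on simulated data.

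Members and gene lists were chosen with earlier results of these data known. Genes were named by fixed rules: most blocks, highest fold, peaks in all 4 lists or in 1 only, GGAC across a junction, most members, and gene lists. Other names illustrate a stated extreme. Alternatives set the FDR, the smallest block, the width, the overlap and the span. Matched width for fold and overlap, and the last exon for block side, were added after seeing the data. Some results are not reported here because the items are withheld.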

Additional observations from a re-analysis of the deposited data

How the results depend on the processing

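No paired analysis was possible because each age has 1 peak list and no result comes from a test. With log10 FDR of at most -3, the share of coding sequence peaks that cross a junction was 8.64% at day 1, 5.13% at 1 week and 7.38% in the 2/4-week list. With blocks of at least 30 nt it was 5.16%, 2.94%, 4.12% and, at 8 weeks, 2.41%, and 125 peaks were left at 1 week and 52 at 8 weeks. GGAC was then held by 94.8% at day 1. Among peaks of 150 to 300 nt the share was 3.14%, 2.68%, 3.89% and 3.15%, and GGAC was held by 72.1% at day 1, 70.8% at 1 week and 62.3% in the 2/4-week list. Overlap of at least 50% of both peaks' exonic bases was met by 48.3% of day 1 members for 1 week, 44.9% for the 2/4-week list and 14.8% for 8 weeks, and for day 1 by 55.3% of 1-week, 48.3% of 2/4-week and 32.6% of 8-week members. With FDR of at most 0.05 the median fold within 1 exon at 8 weeks was 24. That of junction-spanning peaks, counted below among the values that moved little, was then 24.7. Of the alternatives added after seeing the data, equal width turned the difference in median fold to -4.80, -4.4, -1 and -3.6, and that in overlap of day 1 members to -14.6 and -9.22 points for 1 week and the 2/4-week list. It moved that for 8 weeks to +0.059 and those of 1-week, 2/4-week and 8-week members in day 1 to -27.2, -33.6 and -28.2 points. Without the last exon, the larger block was upstream in 40.6%, 35.0%, 53.1% and 72.7%. Apart from width and block size, whose construction removes wide peaks and thin blocks, the cause was not tested. The other 44 planned values and 4 added ones moved by less than counting error or less than 1.5 times. These included the 16 genes and 30 junctions in all 4 lists. Unknown depth and 86 peaks at 8 weeks limit precision.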
